A study of Rattus norvegicus with 10 samples.

Results

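The genes described here are the 7 myosin light chain genes Myl1, Myl2, Myl3, Myl4, Myl6, Myl7 and Myl9, the light chain kinase gene Mylk3 and the cardiac myosin binding protein C gene Mybpc3. They were taken by symbol from a count table of 28522 gene symbols. All 9 were present, and all 9 were among the 13869 genes that passed the filter on low counts. Myosin, the motor of muscle contraction and of cell movement, is built from heavy chains that each carry an essential light chain, which stiffens the lever arm, and a regulatory light chain, whose phosphorylation tunes the force. The heart uses a ventricular set of light chains and an atrial set that the embryonic ventricle also makes, whereas non-muscle and smooth muscle myosins use sets of their own. Myosin binding protein C lies along the thick filament of the sarcomere and sets how many heads are free to work; its cardiac form is a frequent site of mutations in hypertrophic cardiomyopathy.

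RNA was sequenced from primary cultures of rat heart ventricles, isolated with enzymes from newborn animals 1 to 3 days old and separated on a Percoll gradient. Cardiomyocytes, which beat and contract, were used without passage, and cardiac fibroblasts, the connective tissue cells of the heart, at passage 2. The medium was exchanged 24 h after plating for a serum-free medium alone or for the same medium with phenylephrine at 10 µM, which activates alpha1-adrenergic receptors and is used to provoke hypertrophic growth in culture. Of the 10 libraries, 3 were cardiomyocytes without the agonist, 3 cardiomyocytes with it, 2 fibroblasts without it and 2 fibroblasts with it. The time spent in phenylephrine is not given in the sources used here, and passage and cell type cannot be told apart. Since the labels do not trace replicates to separate cultures or animals, p-values measure only the spread between these libraries, which may be technical. Levels below are CPM, counts relative to the scaled library total, as mean ± SD with the number of libraries. No gene lengths were used, so the levels of different genes are not compared with each other.

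Library totals ran from 18048944 to 22794744 counts, and a floor of 3 counts was 0.128 to 0.166 CPM (counting error only). The cardiomyocyte cultures held the defining transcripts of their label: the summed level of 5 measured of 6 listed cardiomyocyte markers (Tnnt2, Actn2, Ryr2, Nkx2-5, Pln) was 9262 to 11509 CPM there and 489 to 574 CPM in fibroblasts. The 7 fibroblast markers (Col1a1, Col1a2, Col3a1, Pdgfra, Tcf21, Postn, Ddr2) summed to 39253 to 55888 CPM in fibroblasts. They were also present in cardiomyocytes, at 6200 and 6719 CPM in serum-free replicates 1 and 3 but 11685 CPM in replicate 2, and at 8815 and 8716 CPM in phenylephrine replicates 2 and 3 but 14802 CPM in replicate 1. These 2 libraries also stood apart over all genes: the spread between serum-free replicate 2 and either mate was 21.9 and 22.6 times the counting variance, against 4.2 between the mates, and for phenylephrine replicate 1 it was 18.3 and 22.6 times, against 2.99. Results that rest on them are therefore given with and without both. Col1a1 and Col3a1 carry most of the fibroblast marker sum. In serum-free cardiomyocytes they ran from 4321 to 7890 CPM and from 1406 to 3167 CPM, and Col1a2 from 1.40 to 3.21 CPM. The other markers varied less there: Postn from 310 to 436, Ddr2 from 89.1 to 114, Pdgfra from 54.7 to 65.8 and Tcf21 from 18.1 to 22.0 CPM. In such mixed cultures fewer cells of a type and less RNA per cell cannot be told apart. Between the 2 serum-free fibroblast libraries the spread was 14.7 times the counting variance, against 2.42 between the 2 with phenylephrine. With 2 libraries in a group it cannot be said which of them stands apart.

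Promoter sequence was at hand for 7 of the 9 genes in RefSeq (build GRCr8), as windows that begin 250 bases before the annotated start. Myl1 had windows for both of its alternative starts, and Myl2 and Myl9 had no entry. Of 7 motifs searched on both strands, the MEF2 site (the element of the myocyte enhancer factors) was found in 2 of the 8 windows and in 2.961% of 33469 windows of the table, and the CArG box (the element of serum response factor) in 1 of 8 and in 1.497%. The shorter motifs are common: the E box CANNTG was in 6 of 8 windows and 65.541% of all, the NKX2-5 core AAGTG in 3 of 8 and 40.635%, the TEAD site GGAATG in 2 of 8 and 12.062%, the GATA site AGATAA in 1 of 8 and 10.299%, and the AP-1 site TGANTCA in 0 of 8 and 6.34%. Motifs were searched in the whole windows up to the annotated start, and only the sequences shown were cut at the outermost start. A match is a run of letters, not a bound site. The 3 windows with a MEF2 site or a CArG box are shown 5′ to 3′ because these are the rarest of the motifs searched; capitals mark the MEF2 site in Mybpc3 and Myl1 and the CArG box in Myl3.
Mybpc3, chr3:97550811-97550973, plus strand: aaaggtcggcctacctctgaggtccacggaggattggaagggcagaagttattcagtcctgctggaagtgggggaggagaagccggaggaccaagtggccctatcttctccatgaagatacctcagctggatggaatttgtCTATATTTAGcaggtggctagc
Myl3, chr8:119616844-119617076, plus strand: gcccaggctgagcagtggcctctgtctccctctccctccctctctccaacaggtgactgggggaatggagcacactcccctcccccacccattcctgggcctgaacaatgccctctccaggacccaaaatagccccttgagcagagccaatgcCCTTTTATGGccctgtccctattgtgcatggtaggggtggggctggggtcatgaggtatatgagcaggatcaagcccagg
Myl1, the inner start, chr9:75897800-75898049, minus strand: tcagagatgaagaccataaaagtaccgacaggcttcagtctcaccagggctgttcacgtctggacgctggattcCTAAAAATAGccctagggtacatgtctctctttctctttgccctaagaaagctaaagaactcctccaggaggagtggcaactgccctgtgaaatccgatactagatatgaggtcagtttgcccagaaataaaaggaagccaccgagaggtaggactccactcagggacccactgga
The MEF2 site of Mybpc3 lay at -109 to -100 from the annotated start and overlapped none of the other motifs, with an E box directly after it at -99 to -94. The CArG box of Myl3 lay at -97 to -88, downstream of 2 TEAD sites (GGAATG at -189 and its reverse complement CATTCC at -161). In Myl1 the MEF2 site lay at -176 to -167 from the inner start, and no CArG box or MEF2 site was found in the window of the outer one.

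The first comparison asked how the 9 genes differ between the cell types. In serum-free medium, 8 of 9 passed the test (an adjusted p below 0.05 by Benjamini-Hochberg over all genes, from the quasi-likelihood test of edgeR), against 66.1% of all genes tested. Myl1, Myl2, Myl3, Myl4, Myl7, Mylk3 and Mybpc3 were higher in cardiomyocytes, as were 34.5% of all genes, and Myl6 was lower, as were 31.7%. With phenylephrine in both cell types, the same 7 genes were higher, as were 33.7% of all genes, and 0 were lower, as were 31.2%; neither Myl6 nor Myl9 passed by edgeR, DESeq2 or limma-voom on all libraries, which makes 7 of 9 against 65% of all genes. The median log2 difference over the 9 genes was 6.90 without and 7.01 with the agonist, and over all genes 0.02 in both; with Myl1 at its lower bound (it had no fibroblast count) the medians were 6.08 and 7.01. The summed share of the 9 genes in all counts was 0.872% to 1.01% for cardiomyocyte libraries and 0.190% to 0.232% for fibroblast libraries.

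**Figure D1:**
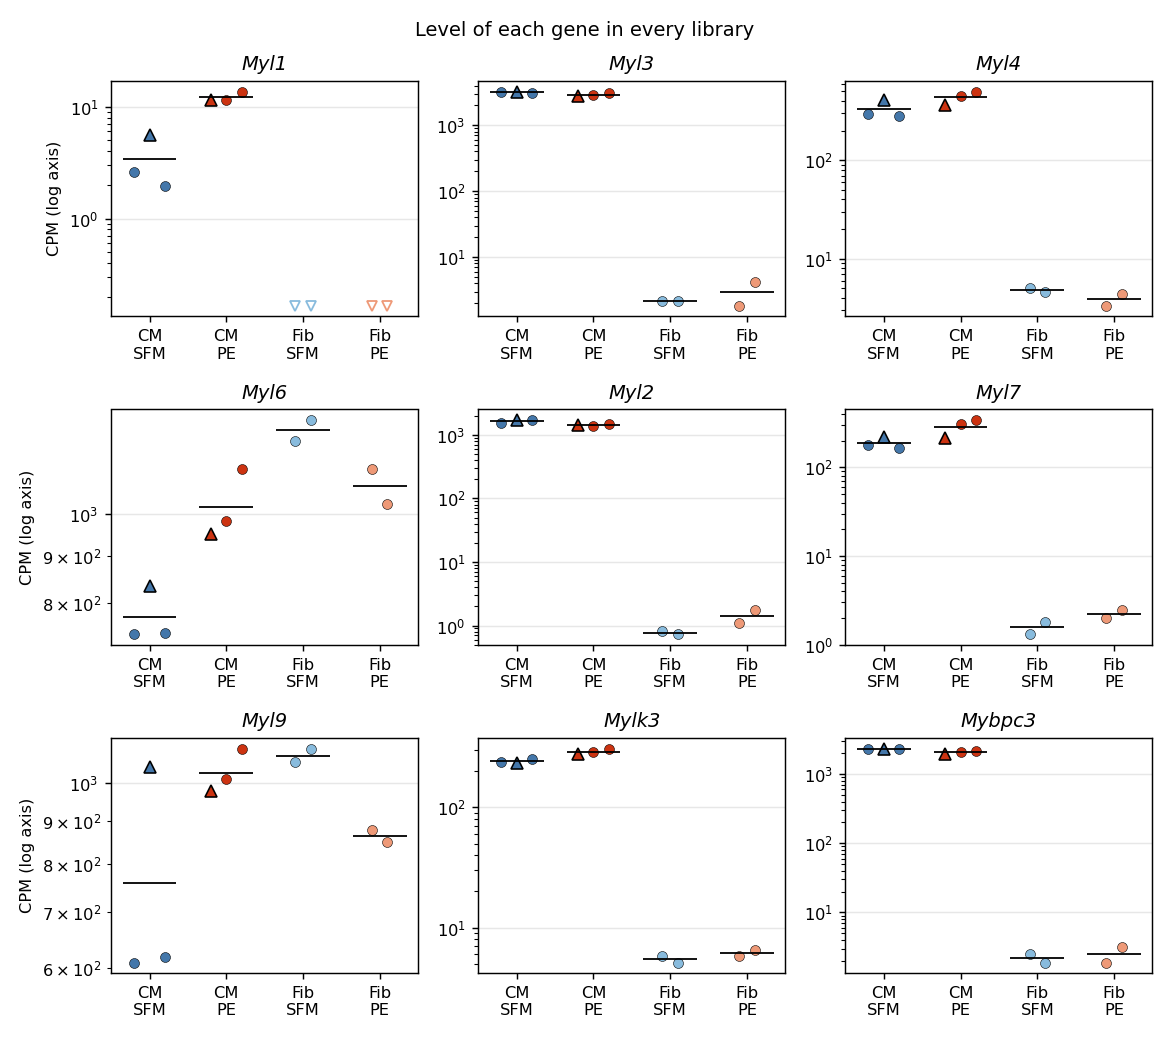
Level of each gene in every library, in CPM on a log axis whose range differs by panel; CM are cardiomyocytes, Fib fibroblasts, SFM serum-free medium and PE phenylephrine. Points are libraries, bars group means, upright triangles the 2 libraries that stand apart and open downward triangles a count of 0, drawn at the bottom of the panel. Cardiomyocytes and fibroblasts are far apart in every panel but those of Myl6 and Myl9.

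Among the essential light chains, Myl3, the ventricular and slow muscle form, was at 3220, 3197 and 3131 CPM in the serum-free cardiomyocyte libraries. With phenylephrine it was at 2751, 2887 and 3104 CPM. In fibroblasts it was at 2.18 and 2.14 CPM without and 1.82 and 4.14 CPM with the agonist. All cardiomyocyte libraries thus lay far above all fibroblast libraries, and the serum-free cardiomyocytes lay just above those with phenylephrine without overlap. Group levels were 3183 ± 46.3 CPM (n = 3) and 2914 ± 178 CPM (n = 3) in cardiomyocytes, and the cell type difference was log2 10.52 ± 0.26 (SE; edgeR adjusted p = 6.2e-11) without the agonist and 9.94 ± 0.25 with it (adjusted p = 7.57e-11).

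Myl4, the atrial essential light chain that is also made in the embryonic ventricle, was at 297, 406 and 283 CPM in serum-free cardiomyocytes. With phenylephrine it was at 367, 450 and 496 CPM, and serum-free replicate 2 lay inside that range. Fibroblasts had 5.06 and 4.64 CPM without and 3.33 and 4.42 CPM with phenylephrine. The 2 fibroblast groups did not overlap and lay far below every cardiomyocyte library. The cell type difference was log2 6.08 ± 0.25 without the agonist (edgeR adjusted p = 2.69e-08) and 6.82 ± 0.26 with it (adjusted p = 1.63e-08). Myl4 overlaps Cdc27 in RefSeq, which may differ from the annotation used for counting. The strand setting of the counting is not given in the sources used here, so reads of the pair may not be separable.

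Myl1, the essential light chain of fast skeletal muscle, had 54, 104 and 46 counts in serum-free cardiomyocytes and 217, 211 and 282 with phenylephrine, and no count in any of the 4 fibroblast libraries. The groups of cardiomyocytes did not overlap, and serum-free replicate 2 was the highest of its group. Levels were 3.38 ± 1.92 CPM (n = 3) and 12.2 ± 1.22 CPM (n = 3), which is at least 43.8-fold and at least 152-fold higher than fibroblasts, taking a floor of 3 counts over each fibroblast group. The cell type test passed in both media (edgeR adjusted p = 0.000642 and 6.54e-05). The defining skeletal muscle factors were at or near 0 in cardiomyocytes: Myod1, Myf5 and Pax7 had no count in any library, Myog 1 count in each cardiomyocyte group, and Myf6 2 counts without and 1 with phenylephrine. Of 16 skeletal muscle markers 14 were in the table. Their sum was 909 to 1585 CPM in cardiomyocytes and 58.5 to 139 CPM in fibroblasts. It includes Acta1 and Ckm, which heart muscle also makes. Of 7 tested, 2 were higher and 3 lower in serum-free cardiomyocytes (34.5% and 31.7% of all genes). Phenylephrine changed 0 of them in cardiomyocytes (3.63% of all genes). Myh3 averaged 3.70 CPM without and 12.1 CPM with phenylephrine in cardiomyocytes, in ranges that overlap. Without the agonist Myh2 averaged 2.22 CPM in cardiomyocytes and 112 CPM in fibroblasts. Tnnt3 and Myh8 also had higher means in fibroblasts.

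Myl6, the essential light chain of non-muscle and smooth muscle myosin, had another pattern. It was at 739, 835 and 741 CPM in serum-free cardiomyocytes and at 952, 982 and 1119 CPM with phenylephrine. In fibroblasts it was at 1203 and 1267 CPM without and 1120 and 1027 CPM with the agonist. Cardiomyocytes thus had less Myl6 than fibroblasts in serum-free medium without overlap (log2 -0.68 ± 0.091, edgeR adjusted p = 4.41e-05), while with phenylephrine the ranges met and the difference did not pass (log2 -0.08 ± 0.092, adjusted p = 0.483). Myl6 overlaps an uncharacterised locus in RefSeq, so a part of the reads of Myl6 may belong there. The annotation used for counting may differ and may not hold that locus.

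Of the regulatory light chains, Myl2, the ventricular form, was at 1518, 1697 and 1697 CPM in serum-free cardiomyocytes. With phenylephrine it was at 1446, 1398 and 1490 CPM, all just below the serum-free libraries. In fibroblasts it was at 0.809 and 0.729 CPM without and 1.09 and 1.77 CPM with phenylephrine, from 14 to 32 counts a library. The order of the groups was therefore opposite in the 2 cell types, with no overlap in either. The phenylephrine change did not pass the edgeR test in cardiomyocytes (adjusted p = 0.234) or fibroblasts (adjusted p = 0.0988). Nor did the difference between the cell types (adjusted p = 0.0659). The share of all genes that separate in this way was not computed, so no result is read from the order. The cell type difference of Myl2 was log2 11.04 ± 0.18 without the agonist (edgeR adjusted p = 1.63e-12) and 9.98 ± 0.17 with it (adjusted p = 1.81e-12).

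Myl7, the atrial regulatory light chain, was at 180, 217 and 167 CPM in serum-free cardiomyocytes. With phenylephrine it was at 211, 310 and 339 CPM, so that the lowest treated library, replicate 1, lay under the highest untreated one, replicate 2. Fibroblasts had 1.32 and 1.82 CPM without and 1.98 and 2.49 CPM with the agonist. The cell type difference was log2 6.90 ± 0.32 (edgeR adjusted p = 1.22e-07) and 7.01 ± 0.31 with phenylephrine (adjusted p = 9.67e-08). Beside Myl4 and Myl7, other atrial markers were low but detected in these ventricular cultures: Sln, a regulator of the calcium pump, was at 37.4 to 40.4 CPM in cardiomyocytes and Bmp10, a secreted growth factor, at 17.5 CPM without and 19.6 CPM with phenylephrine on average, and the 7 other markers summed to 83.8 to 90.7 CPM without and 86.8 to 93.9 CPM with phenylephrine. In fibroblasts the same sum was 42.4 to 46.7 CPM without and 44.8 to 46.1 CPM with phenylephrine. Nr2f1 and Nr2f2 had higher means in fibroblasts. Without the agonist Nr2f2 was at 36.6 CPM in fibroblasts and 15.6 CPM in cardiomyocytes on average, and Nr2f1 at 5.88 and 3.69 CPM. Kcna5 was the lowest of the 7 in cardiomyocytes, at 0 to 0.109 CPM. Of 3 ventricular markers, Irx4 was at 46.7 to 60.8 CPM without and 33.9 to 44.6 CPM with phenylephrine (log2 -0.55, edgeR adjusted p = 0.0583), Hey2 at 12.2 to 13.4 CPM without and 15.2 to 17.1 CPM with it (0.31, adjusted p = 0.252) and Hand1 at 1.18 to 2.12 CPM and 1.49 to 2.50 CPM (0.35, adjusted p = 0.521). None of the 3 passed, and they lay on both sides of 0.

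Myl9, the regulatory light chain of smooth muscle and non-muscle myosin, was uneven among the untreated cardiomyocytes. It was at 608, 1045 and 619 CPM in serum-free cardiomyocytes, where replicate 2 stood apart from its mates, and at 977, 1009 and 1098 CPM with phenylephrine. Fibroblasts had 1058 and 1096 CPM without and 878 and 849 CPM with the agonist. Cardiomyocytes were lower than fibroblasts in serum-free medium in 3 of 3 libraries, but the test did not pass (log2 -0.51 ± 0.20, edgeR adjusted p = 0.0507). Without serum-free cardiomyocyte replicate 2 the difference was -0.81 (adjusted p = 1.24e-06), and DESeq2 on all libraries called it (-0.51, adjusted p = 0.0159). With phenylephrine the difference was log2 0.25 ± 0.21 (edgeR adjusted p = 0.311); it became 0.28 (adjusted p = 0.000301) without both libraries that stand apart. The 10 smooth muscle and pericyte markers (Myh11, Cnn1, Smtn, Lmod1, Acta2, Tagln, Des, Rgs5, Cspg4, Kcnj8) did not move as one. In serum-free medium 4 were higher in cardiomyocytes (Des, Rgs5, Cspg4 and Kcnj8), as were 34.5% of all genes. Another 5 were lower (Myh11, Smtn, Lmod1, Acta2 and Tagln), as were 31.7% of all genes, and Cnn1 did not pass (edgeR adjusted p = 0.0805). The sum of all 10 markers was 4171, 6076 and 3960 CPM in serum-free cardiomyocytes and 6482, 6411 and 6978 CPM with phenylephrine. In fibroblasts it was 10297 and 9810 CPM without and 7401 and 7260 CPM with phenylephrine. Serum-free cardiomyocyte replicate 2 thus lay above its mates in the sum as in Myl9. Des is a heart muscle gene as well, and the part of these cells in the Myl9 level was not tested.

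Mylk3, the kinase that phosphorylates the ventricular regulatory light chain in heart muscle, was at 239, 234 and 253 CPM in serum-free cardiomyocytes. With phenylephrine it was at 276, 287 and 308 CPM, above every serum-free library. Fibroblasts had 5.82 and 5.11 CPM without and 5.84 and 6.47 CPM with phenylephrine, ranges that lay just apart. The cell type difference was log2 5.47 ± 0.099 (edgeR adjusted p = 3.63e-12) and 5.56 ± 0.098 with phenylephrine (adjusted p = 3.03e-12). Mylk3 overlaps an uncharacterised locus in RefSeq, which the annotation used for counting may not hold.

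Mybpc3 was at 2321, 2336 and 2275 CPM in serum-free cardiomyocytes. With phenylephrine it was at 1948, 2119 and 2195 CPM, all below the serum-free libraries. Fibroblasts had 2.53 and 1.88 CPM without and 1.88 and 3.15 CPM with phenylephrine, which overlap. The cell type difference was log2 10.03 ± 0.20 (edgeR adjusted p = 4.83e-12) and 9.70 ± 0.19 with phenylephrine (adjusted p = 5.98e-12).

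What remained of each transcript in fibroblasts differed by more than 10-fold among the cardiac genes. The fibroblast level in serum-free medium was 0.047% of the cardiomyocyte level for Myl2 (exact Poisson 95% interval of the fibroblast counts 0.0317% to 0.0671%), 0.0677% for Myl3 (0.054% to 0.0839%) and 0.0953% for Mybpc3 (0.0764% to 0.118%). It was 0.834% for Myl7 (0.637% to 1.07%), 1.47% for Myl4 (1.27% to 1.70%) and 2.25% for Mylk3 (1.96% to 2.58%). The ventricular light chains and the binding protein thus kept the smallest shares, and the atrial light chains and the kinase shares above them, with intervals that do not meet. These intervals cover counting error only and leave out the spread between libraries. Among the cardiomyocyte markers the same share was 0.157% for Ryr2, 0.173% for Pln, 0.252% for Actn2, 0.329% for Nkx2-5 and 10.9% for Tnnt2. The shares with phenylephrine were 0.0991% for Myl2, 0.102% for Myl3, 0.120% for Mybpc3, 0.778% for Myl7, 0.886% for Myl4 and 2.12% for Mylk3. The source of these fibroblast counts was not tested.

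**Figure D2:**
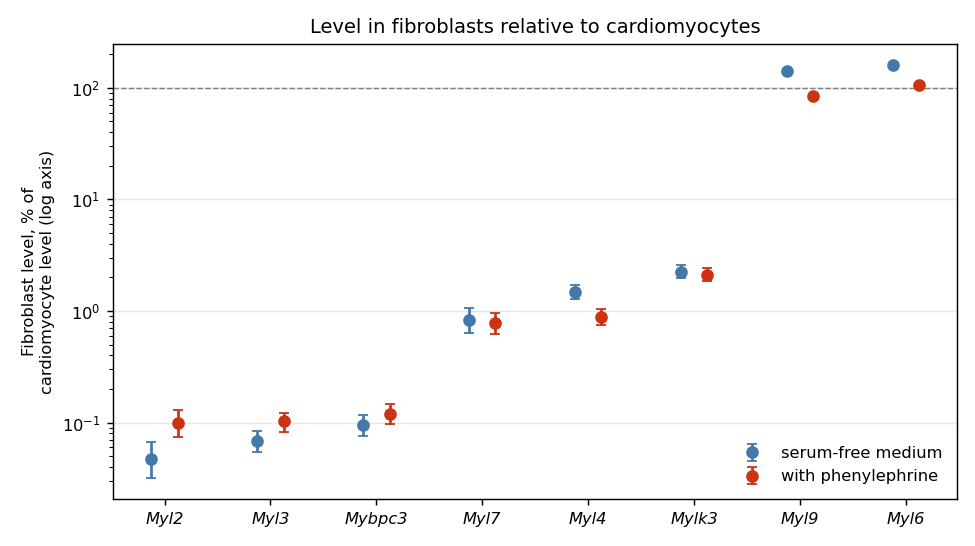
Fibroblast level as a percentage of the cardiomyocyte level (log axis) for 8 genes, in serum-free medium and with phenylephrine; bars are exact Poisson 95% intervals of the fibroblast counts and cover counting error only, and the dashed line marks equal levels. Myl2, Myl3 and Mybpc3 lie near 0.1% or below, Myl7, Myl4 and Mylk3 between 0.778% and 2.25%, and Myl9 and Myl6 near or above the line; Myl1 had no fibroblast count.

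The second question was what phenylephrine did in cardiomyocytes. In cardiomyocytes 3 of the 9 genes rose, as did 1.79% of all genes, and 0 fell (0 by DESeq2 or limma-voom as well, and 0 at an unadjusted p below 0.05), as did 1.84% of all genes; in either direction the call rate over all genes was 3.63%. Myl1 rose 3.68-fold (log2 1.88 ± 0.34, edgeR adjusted p = 0.0367), Myl6 1.32-fold (0.40 ± 0.083, adjusted p = 0.0309) and Mylk3 1.20-fold (0.26 ± 0.062, adjusted p = 0.0459), each with all 3 treated libraries above all 3 untreated ones. These are the fast skeletal and the non-muscle essential light chain and the cardiac light chain kinase. The median log2 change over the 9 genes was 0.40, against -0.00 over all genes.

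The atrial light chains did not pass: Myl7 was at log2 0.61 ± 0.17 (edgeR adjusted p = 0.0884) and Myl4 at 0.41 ± 0.15 (adjusted p = 0.153). Myl9 was at 0.44 ± 0.18 (adjusted p = 0.201). The ventricular and sarcomeric genes were at small negative values that did not pass either, Myl2 at -0.18 ± 0.084 (adjusted p = 0.234), Mybpc3 at -0.15 ± 0.10 (adjusted p = 0.435) and Myl3 at -0.13 ± 0.13 (adjusted p = 0.619). In the authors' deposited results, 4 of the 9 genes were below an adjusted p of 0.05 in this comparison. The fourth, beside Myl1, Myl6 and Mylk3, was Myl7, at log2 0.61 and the authors' adjusted p = 0.0168. Among all 19808 genes with an adjusted p from the authors, 792 were below 0.05. That gene set is larger than the 13869 genes tested here.

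The 2 libraries that stand apart bear on these values. Without both of them 6 genes rose: Myl1 (log2 2.47), Myl7 (0.91, edgeR adjusted p = 2.35e-08), Myl9 (0.78, adjusted p = 3.09e-08), Myl4 (0.71, adjusted p = 3.09e-07), Myl6 (0.51) and Mylk3 (0.27). In all, 3486 genes were then called, where 503 were with all libraries. The calls rest on few libraries in the other direction as well: none of the 9 genes passed without serum-free cardiomyocyte replicate 1 or 3, without phenylephrine cardiomyocyte replicate 2 or 3, or without either fibroblast library with phenylephrine, although no fibroblast library is in this contrast. The values themselves stayed between 1.59 and 2.43 for Myl1, 0.33 and 0.46 for Myl6 and 0.22 and 0.30 for Mylk3 when any single library was left out.

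**Figure D3:**
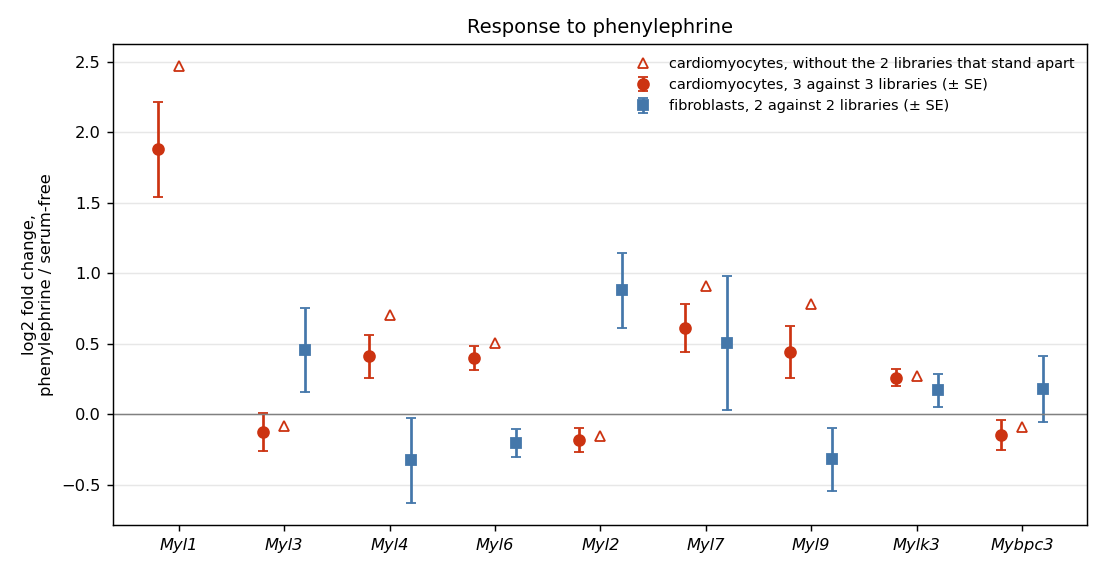
Log2 fold change with phenylephrine for each gene; filled circles are cardiomyocytes and squares fibroblasts, with bars of 1 SE, and open triangles are cardiomyocytes without the 2 libraries that stand apart. Myl1, Myl7, Myl9 and Myl4 shift most when these are left out, and Myl3, Myl2 and Mybpc3 stay near or below 0; Myl1 has no fold change in fibroblasts, where it had no count.

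The summed fibroblast markers were higher in the 3 treated cardiomyocyte libraries than in serum-free replicates 1 and 3, but serum-free replicate 2 (11685 CPM) lay above phenylephrine replicates 2 and 3. Their single log2 changes with phenylephrine ran from -0.08 (Pdgfra) to 0.49 (Postn) and did not pass (smallest edgeR adjusted p = 0.357). Myl9 was at 1045 CPM in that serum-free library and at 977 CPM in phenylephrine replicate 1. Phenylephrine replicates 2 and 3, with fibroblast marker sums of 8815 and 8716 CPM, had the highest Myl7, at 310 and 339 CPM, and the highest Myl6, at 982 and 1119 CPM. The summed smooth muscle and pericyte markers were also higher in all 3 treated libraries (6411 to 6978 CPM) than in the untreated ones (3960 to 6076 CPM). Of the 10, 1 was called (Cspg4, log2 0.91, edgeR adjusted p = 0.0396), against 3.63% of all genes. The 7 leukocyte markers summed to 103 to 125 CPM with and 141 to 165 CPM without phenylephrine. Of them 3 fell, as did 1.84% of all genes: Rac2 (log2 -1.58, edgeR adjusted p = 0.00241), Fcer1g (-0.59, adjusted p = 0.0373) and Ptprc (-0.62, adjusted p = 0.0468). The part of other cells in the response was not tested.

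**Figure D4:**
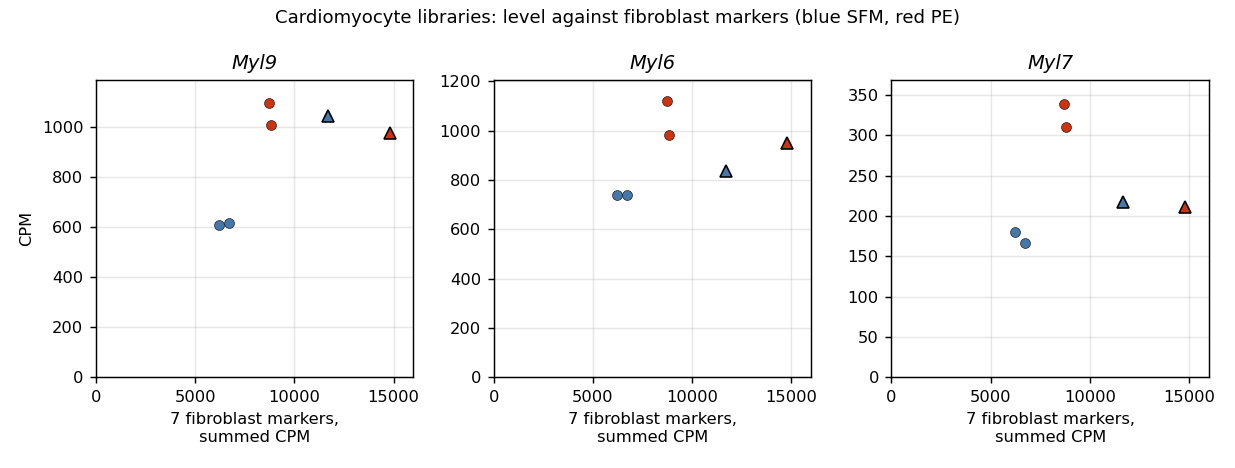
Levels of Myl9, Myl6 and Myl7 (CPM) in the 6 cardiomyocyte libraries against the summed level of 7 fibroblast markers (CPM); blue is serum-free medium, red phenylephrine and triangles the 2 libraries that stand apart. Both triangles lie to the right, and phenylephrine replicates 2 and 3 have the highest Myl6 and Myl7 at marker sums of 8815 and 8716 CPM. Col1a1 and Col3a1 carry most of the marker sum.

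Ratios within a library do not depend on its scaling and were used to describe the balance of light chain pairs; they are ratios of counts, not of molecules, since lengths differ. Per 100 counts of ventricular Myl2, serum-free cardiomyocytes had 11.9, 12.8 and 9.82 counts of atrial Myl7, and treated ones 14.6, 22.2 and 22.8. Per 100 counts of ventricular Myl3 they had 9.22, 12.7 and 9.04 counts of atrial Myl4, and treated ones 13.3, 15.6 and 16.0. Every treated library lay above every untreated one in both pairs. The difference was log2 0.77 for Myl7 to Myl2 and 0.55 for Myl4 to Myl3, each with p = 0.1 in a two-sided exact permutation test, the smallest value that 3 against 3 libraries allow, and adjusted p = 0.2 over 6 such tests.

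Myl1 to Myl3 was at 0.0809, 0.174 and 0.0625 counts per 100 without and 0.418, 0.397 and 0.438 with phenylephrine, a difference of log2 2.11, again with exact permutation p = 0.1. The non-muscle pair Myl9 to Myl6 was at 82.3, 125 and 83.5 counts per 100 without and 103, 103 and 98.1 with phenylephrine, a difference of log2 0.09 with exact permutation p = 0.8. In fibroblasts Myl9 to Myl6 was at 88 and 86.5 counts per 100 without and 78.4 and 82.7 with phenylephrine (log2 -0.12, exact permutation p = 0.333, the smallest that 2 against 2 allow). Between cell types this ratio differed by log2 0.23 over both media (exact permutation p = 0.16 with labels exchanged within each medium, smallest possible 0.01), and by 0.13 without serum-free cardiomyocyte replicate 2.

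**Figure D5:**
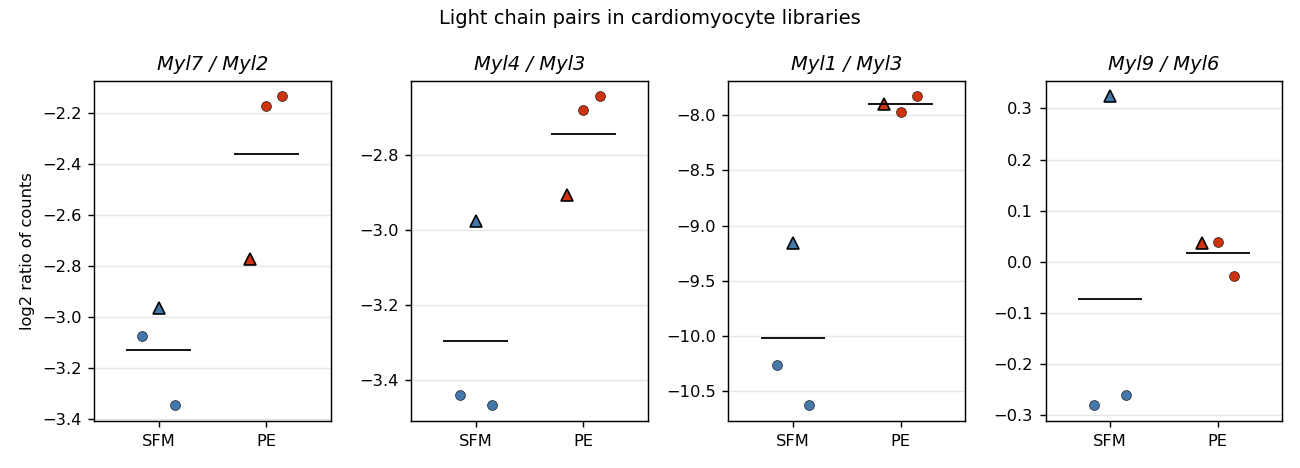
Log2 ratio of counts for 4 light chain pairs in cardiomyocyte libraries, in serum-free medium (SFM) and with phenylephrine (PE); points are libraries, bars group means and triangles the 2 libraries that stand apart. In the first 3 pairs the treated libraries lie above the untreated ones, and in Myl9 to Myl6 serum-free replicate 2 is the highest of all.

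In fibroblasts phenylephrine changed 0 of the 9 genes, against 3.83% of all genes in the edgeR test, with 2.06% higher and 1.77% lower. DESeq2 and limma-voom also called 0. An unadjusted p below 0.05 was reached by 1 gene, Myl2 (edgeR adjusted p = 0.0988). Myl2 was at log2 0.88 ± 0.27 there, from 30 counts in the untreated and 53 in the treated pair, and at 0.51 without fibroblast phenylephrine replicate 2. Myl7 was at 0.51 ± 0.47, Myl3 at 0.46 ± 0.30, Myl4 at -0.33 ± 0.30, Myl9 at -0.32 ± 0.23, Myl6 at -0.20 ± 0.10, Mybpc3 at 0.18 ± 0.24 and Mylk3 at 0.17 ± 0.12. The median over the 8 genes with a fold was 0.17, against -0.00 over all genes. The 2 abundant genes, Myl6 and Myl9, were lower in both treated libraries than in both untreated ones, as was Myl4. Myl2, Myl7 and Mylk3 were higher in both. The share of all genes that separate in this way was not computed, so no result is read from it. Myl6 and Myl9 were called without both cardiomyocyte libraries that stand apart (Myl9 log2 -0.32, edgeR adjusted p = 0.000986, and Myl6 -0.20, edgeR adjusted p = 0.0481). In that setting 2056 of all genes were called, where 531 were with all libraries. Myl9 was also called without serum-free cardiomyocyte replicate 2 alone (adjusted p = 0.0268), and Myl3 without fibroblast phenylephrine replicate 1 (log2 0.94, adjusted p = 0.0489).

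The response differed between the cell types for 1 of the 9 genes, against 3.25% of all genes, 1.63% with the higher and 1.62% with the lower value in cardiomyocytes. Myl6 moved up in cardiomyocytes and was lower in treated fibroblasts, a difference of log2 0.60 ± 0.13 (edgeR adjusted p = 0.0324), and its level in treated cardiomyocytes met that of treated fibroblasts. The difference was log2 -1.06 ± 0.28 for Myl2 (adjusted p = 0.0659), 0.76 ± 0.29 for Myl9 (adjusted p = 0.2) and 0.74 ± 0.34 for Myl4 (adjusted p = 0.278), which did not pass. It was -0.58 ± 0.33 for Myl3, -0.33 ± 0.26 for Mybpc3, 0.10 ± 0.52 for Myl7 and 0.09 ± 0.13 for Mylk3, also short of the test. Without both libraries that stand apart Myl6 (log2 0.71), Myl9 (1.10), Myl4 (1.04) and Myl2 (-1.03) passed. In all, 2657 genes were then called, where 451 were with all libraries. Myl6 no longer passed without replicate 1 or 3 of the serum-free cardiomyocytes, phenylephrine cardiomyocyte replicate 2 or 3, or any 1 of the 4 fibroblast libraries, with values between 0.53 and 0.66 over all single libraries left out.

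Other light chains and myosin binding proteins differed between the cell types in most cases, as did most genes. Of 11 such genes, 9 were in the table and 6 were tested; untreated cardiomyocytes had 3 of them higher and 1 lower than fibroblasts (66.1% of all genes were called), and treated ones 4 higher and 1 lower (65% of all genes). Mybpc2, the fast skeletal binding protein C, was at 74.5 ± 8.90 CPM (n = 3) in untreated and 72.2 ± 9.31 CPM (n = 3) in treated cardiomyocytes, against 0.335 ± 0.116 CPM (n = 2) in untreated fibroblasts (log2 7.77 ± 0.27). Mybphl, a relative of myosin binding protein H, was higher as well (log2 2.75 ± 0.31), and Myl12b, a non-muscle regulatory light chain, lower (-1.69 ± 0.075); with phenylephrine Myl12a, also a non-muscle form, was higher in cardiomyocytes (0.54 ± 0.096, edgeR adjusted p = 0.000388). Myl12b and Myl12a are near copies whose reads may be split. Phenylephrine changed 0 of the 6 in either cell type in edgeR (3.63% of all genes in cardiomyocytes and 3.83% in fibroblasts), and 0 differed in response (3.25%), with DESeq2 and limma-voom also at 0; an unadjusted p below 0.05 was reached by 0 genes in cardiomyocytes and by 2 (Myl12a and Myl12b) in fibroblasts and in the difference. Of them Mylpf, the regulatory light chain of fast skeletal muscle, was at 0.370 ± 0.171 CPM without and 0.554 ± 0.142 CPM with phenylephrine in cardiomyocytes, where Myl1 rose.

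Of 10 tested light chain kinases and calmodulins, 3 were higher and 7 lower in serum-free cardiomyocytes (34.5% and 31.7% of all genes), with Calm3 at log2 -1.01 ± 0.091, Dapk1, a death-associated kinase, at -1.07 ± 0.11 and its relative Stk17b at 0.85 ± 0.10. Dapk1 was the only gene of this list called with phenylephrine. It fell in cardiomyocytes (log2 -0.44 ± 0.11, edgeR adjusted p = 0.0487) and rose in fibroblasts (0.55 ± 0.12, edgeR adjusted p = 0.0314). The difference was -0.99 ± 0.16 (edgeR adjusted p = 0.00998). Over all genes 3.63% were called in cardiomyocytes, 3.83% in fibroblasts and 3.25% for the difference. A single call among 10 genes is therefore not read as a trait of the list. The call in cardiomyocytes was lost when any of the 8 libraries other than the 2 that stand apart was left out, the call in fibroblasts without any fibroblast library or without phenylephrine cardiomyocyte replicate 2, and the call of the difference without serum-free fibroblast replicate 1 or either treated fibroblast library. The list also had 0 calls in cardiomyocytes with limma-voom, with at least 10 CPM in a group, with the compared groups only and with a replicate block. In fibroblasts it had 0 with the block. Without both libraries that stand apart it had 6 in cardiomyocytes, where 3486 of all genes were called. Among the genes of myosin phosphatase, the inhibitor subunit Ppp1r14c (log2 3.35 ± 0.11) and the muscle targeting subunit Ppp1r12b (2.47 ± 0.11) were higher in serum-free cardiomyocytes, and Ppp1r14a, the smooth muscle inhibitor known as CPI-17, lower (-3.19 ± 0.16).

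Of 7 kinases known to phosphorylate cardiac binding protein C, 3 were higher in serum-free cardiomyocytes and 0 lower, against 66.1% of all genes called, and 5 were called without both libraries that stand apart. The 3 were Prkaca, a catalytic subunit of protein kinase A, at log2 1.83 ± 0.083, Camk2d at 0.44 ± 0.062 and Camk2g at 0.40 ± 0.083. Phenylephrine changed 0 of the 7 in either cell type by edgeR, against 3.63% of all genes in cardiomyocytes and 3.83% in fibroblasts. With so few genes, 0 calls is no result about these kinases. An unadjusted p below 0.05 was reached by 0 in cardiomyocytes and 2 in fibroblasts (Camk2d and Prkce), and 1 in fibroblasts was called by DESeq2.

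Within the 6 cardiomyocyte libraries the genes fell into patterns that can be described by the correlation of log2 CPM, which includes the difference between treated and untreated libraries and is given with no test. Mybpc3 followed Myl3 (r = 0.98), Myl7 followed Myl4 (0.95) and Myl6 followed Myl1 (0.95). The genes outside the set most like each member, among 9017 with at least 10 CPM, were Snrpc, Pnkd and Taf3 for Myl3, Cenpa, Kif22 and Arhgef17 for Myl4, Pacsin3, Tmem97 and Itga7 for Myl1, and Marveld1, Schip1 and Hey2 for Myl6. They were Sufu, Stox2 and Mocs2 for Myl2, Cacna1a, Plcd3 and Epm2aip1 for Myl7, Sept10, Kif15 and Mpp5 for Myl9, Usp13, Ddit4 and Heatr6 for Mylk3, and Ighmbp2, Apobec2 and Wbscr16 for Mybpc3. These correlations were 0.977 to 0.999, and 14 (for Myl2) to 237 (for Myl9) genes per member exceeded 0.95, so that many genes share each pattern over so few libraries.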

How the data were processed

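Per the submitters' processing notes, reads were handled with cutadapt (no version given), TopHat2 2.0.10, HTSeq 0.6.1p1 and DESeq2 1.6.3 on build Rnor_6.0; the annotation release and strand setting are not given in the sources used here. The deposited table holds raw counts per gene symbol and library, not normalized. Per the file headers it also holds the authors' log2 fold change and adjusted p-value for 4 comparisons; 10 further columns of per-library values were not used.

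Counts were scaled by TMM, filtered with filterByExpr (minimum count 10, minimum total 15) and fitted with edgeR 4.0.16 in R 4.3.3 (quasi-likelihood, robust), with 1 coefficient for each of 4 groups over all 10 libraries. P-values of 5 contrasts were two-sided and adjusted by Benjamini-Hochberg over 13869 genes within each. Log2 values are fitted fold changes ± SE. Ratios used log2 of counts plus 0.5. Correlations used log2 CPM with a prior count of 2. Same-numbered libraries did not deviate together, and no block was used in the fit. So few libraries in a group cannot exclude a pairing. The test was tried on simulated data. Alternatives were RLE factors, library size alone, DESeq2 1.42.0, limma-voom (limma 3.58.1), no filter, at least 10 CPM in a group, compared groups only, a replicate block, and leaving out libraries. Named genes are the 9 members, up to 3 per list and contrast of smallest adjusted p, and the 3 most alike per member. Mylpf in cardiomyocytes, Sln, Bmp10, Kcna5, Nr2f1, Nr2f2, Irx4 and the skeletal factors and markers were named as markers or beside a member. The members, lists and tests were chosen with earlier results of these data known. The counts of 1 list, on myosin phosphatase and its regulators, are not reported here.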

Additional observations from a re-analysis of the deposited data

Results flagged for a closer look

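The phenylephrine response of Myl6 differed between the cell types by the test of the difference itself, log2 0.60 ± 0.13 (edgeR adjusted p = 0.0324): 3 of 3 treated cardiomyocyte libraries lay above the untreated ones, and 2 of 2 treated fibroblast libraries below the untreated ones. The adjusted p ran from 3.86e-05 to 0.168 over its alternatives, all with the same sign. Groups of 2 or 3 libraries were too small to look for single outlying values of Myl6. The 2 cardiomyocyte libraries that stand apart were named from marker sums and the spread over all genes, without a test for outliers.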

How the results depend on the processing

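The cell type differences kept their counts within 1.5 times under every alternative run: 8 to 9 of the 9 genes were called in serum-free medium and 7 to 8 with phenylephrine. The counts for phenylephrine did not. In cardiomyocytes the 3 calls became 0 with the compared groups only, 0 with a replicate block and 6 without both libraries that stand apart, and ran from 0 to 6 when single libraries were left out. Of the single calls, Myl1 was also lost with no filter (adjusted p = 0.0625), and Mylk3 with library size alone (0.0931) and without serum-free fibroblast replicate 1 (0.0530) or 2 (0.0529). In fibroblasts 0 became 1 (Myl9) with the compared groups only and 2 without both libraries, and 0 to 1 when single libraries were left out. For the difference between cell types 1 became 2 with library size alone, with DESeq2 and with no filter (Myl2 and Myl6), 0 with a replicate block and 4 without both libraries, and 0 to 3 when single libraries were left out. The ratio of Myl4 to Myl3 was 0.79 without both libraries. Whether the replicate numbers pair the samples is not known. Deviations of same-numbered cardiomyocyte libraries correlated at -0.22, -0.10 and 0.02 and of fibroblast libraries at -0.04. Deviations from the mean of so few libraries cannot decide it. The block left 205 genes called for phenylephrine in cardiomyocytes in place of 503, 322 in fibroblasts in place of 531, and 230 for the difference in place of 451.

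Over all genes, DESeq2 called 968 for phenylephrine in cardiomyocytes and 790 for the difference, and the compared groups only gave 91 in cardiomyocytes and 1306 in fibroblasts. Without both libraries 3486, 2056 and 2657 genes were called for cardiomyocytes, fibroblasts and the difference, and with single libraries left out 32 to 2371, 112 to 919 and 71 to 1290.

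Some changes that did not pass the test turned their sign when a library was left out. For phenylephrine in fibroblasts, the values ran from -0.24 to 0.94 for Myl3, lowest without fibroblast phenylephrine replicate 2, and from -0.23 to 0.51 for Mybpc3, negative without that library and without serum-free fibroblast replicate 2 (-0.017). For the difference they ran from -1.07 to 0.11 for Myl3 and from -0.66 to 0.085 for Mybpc3, positive without fibroblast phenylephrine replicate 2. They ran from -0.011 to 0.18 for Mylk3, negative without serum-free fibroblast replicate 1, and from -0.15 to 0.32 for Myl7, negative without serum-free fibroblast replicate 2, fibroblast phenylephrine replicate 1 (-0.055) or cardiomyocyte phenylephrine replicate 3 (-0.035). The ratio of Myl9 to Myl6 with phenylephrine in cardiomyocytes ran from -0.015 to 0.29, negative without serum-free cardiomyocyte replicate 1 or 3. Other values that did not pass kept their sign but moved by over 1.5 times. In fibroblasts Myl2 ran from 0.51 to 1.19 (lowest without fibroblast phenylephrine replicate 2), Myl7 from 0.29 to 0.76 (lowest without serum-free replicate 1), Myl4 from -0.54 to -0.13 (nearest 0 without phenylephrine replicate 1) and Mylk3 from 0.079 to 0.27; Myl9 in cardiomyocytes ran from 0.31 to 0.74 (highest without serum-free replicate 2), and the difference of Myl2 from -1.37 to -0.69 (nearest 0 without fibroblast phenylephrine replicate 2). The cause of these changes was not tested. A difference with the compared groups only was not run, since it needs all groups. Fibroblast counts of Myl2, Myl3, Myl7 and Mybpc3 were 14 to 75 a library, so changes there are limited by counting.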
